A study of Mus musculus with 7 samples.

Results

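The genes that coat, fuse and empty the lipid droplets of the liver were examined for binding of retinoid receptors. They were 10 of 21536 protein-coding genes with a mapped start: the perilipins Plin2, Plin3, Plin4 and Plin5, the lipase Pnpla2 with its relative Pnpla3, the lipase regulators Abhd5 and G0s2, and the droplet proteins Cideb and Cidec. The genes were taken by name and not by a cut on a measured signal, but with earlier results of these data known. A peak was assigned to a gene when its midpoint lay in the gene span or within 50 kb of it, which gave 468 of the 245004 peaks in the 6 lists. Positions refer to GRCm38 (mm10), and offsets count from the outermost RefSeq start of the gene, positive downstream.

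Chromatin immunoprecipitation followed by sequencing (ChIP-seq) had been carried out on livers of wild type male C57BL/6 mice, 3 months of age. The labels state 1 day of feeding on a normal (control) diet or a retinoic acid (RA) diet, whereas the methods of the study describe a longer RA feeding, so the time on the diet is uncertain. The α and β forms of the RA receptor (RARα, RARβ) and their common partner, the α form of retinoid x receptor (RXRα), were each precipitated under each diet, in 1 library per receptor and diet. How many animals went into a library is not given in the sources used here. Without a second library of any group no test could be made, and every difference described here is a difference between 2 lists. Binding was measured in whole liver, and no transcript level belongs to these data.

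As background, triglyceride is stored in lipid droplets, whose surface is covered by perilipins. Adipose triglyceride lipase, encoded by Pnpla2, takes the first fatty acid from the stored triglyceride. It is switched on by the co-activator CGI-58, encoded by Abhd5, and held back by the inhibitor encoded by G0s2. Cidec promotes the fusion of droplets, and Cideb takes part in loading lipid onto very low density lipoproteins in hepatocytes. RA is the ligand of the RARs, which bind DNA as dimers with RXRα, while RXRα also pairs with receptors for fatty acids, oxysterols and bile acids. Such dimers recognise pairs of a core hexamer related to AGGTCA.

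RARα lists held 35521 peaks on the control diet and 44296 on RA. RARβ lists held 14968 and 29467, and those of RXRα 61128 and 59624. The lists carry no read totals, and those the study states for RARα and RXRα name no diet, so the depth of each list is not known. Scores came from the peak caller and were not scaled between libraries, so only ranks within a list were used. A rank is given as the percent of the peaks of the same list with that score or a higher one, and the top 1% therefore holds the strongest peaks of that list. The RARβ list under RA was 1.97 times as long as its control list. A peak at an equal position in both thus has a smaller percent under RA by construction. For single RARβ peaks compared between the diets, the position is given as well. Medians of RARβ ranks carry no position. As a check of tissue, all 5 hepatocyte marker genes (Alb, Apoa1, Ttr, Trf, Cps1) had an RXRα peak within 10 kb of the start under both diets. Of all coding genes, 61.3% under the control diet and 61.7% under RA had one. A RARα peak was there at 4 and 4 of the 5, control diet first, and a RARβ peak at 2 and 4. Alb had no RAR peak there in any list. None of the 3 Kupffer cell markers (Clec4f, Vsig4, Cd5l) had a peak of any receptor there. Of the 3 stellate cell markers Lrat alone had one, in both RARα lists. Of the 3 adipocyte markers, Adipoq and Plin1 had RXRα peaks there under both diets and Lep had 1 under the control diet. Adipoq also had a peak there in every RAR list, and Plin1 in every RAR list but that of RARβ under the control diet. Peaks show bound chromatin, not which cells express the gene.

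The promoters on which the results below turn are given first, because they show the sequence that lay under the peaks at the starts. Each run is the RefSeq promoter of GRCm38.p6 from 250 bases before to 50 bases after the start, 5′ to 3′ on the strand of the gene, with the core hexamers AGGTCA or AGTTCA or GGGTCA or GGTTCA, read on either strand, in capitals. Abhd5 lies at chr9:122351366-122351665 (plus strand), Pnpla2 at chr7:141454938-141455237 (plus), Pnpla3 at chr15:84167566-84167865 (plus), Plin5 at chr17:56117499-56117798 (minus, outer of 2 starts) and Plin2 at chr4:86670010-86670309 (minus).
Abhd5: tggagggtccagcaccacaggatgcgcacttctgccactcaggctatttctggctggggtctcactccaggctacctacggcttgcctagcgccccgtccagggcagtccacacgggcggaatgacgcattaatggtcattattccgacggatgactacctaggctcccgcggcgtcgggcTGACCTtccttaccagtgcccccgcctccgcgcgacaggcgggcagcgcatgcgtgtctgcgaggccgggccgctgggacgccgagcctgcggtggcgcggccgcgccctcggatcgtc
Pnpla2: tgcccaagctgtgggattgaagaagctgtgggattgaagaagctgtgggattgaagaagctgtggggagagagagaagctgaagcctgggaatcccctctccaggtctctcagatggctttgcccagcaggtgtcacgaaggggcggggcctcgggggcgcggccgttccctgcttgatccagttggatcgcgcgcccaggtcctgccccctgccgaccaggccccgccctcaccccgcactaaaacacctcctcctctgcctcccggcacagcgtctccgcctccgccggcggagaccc
Pnpla3: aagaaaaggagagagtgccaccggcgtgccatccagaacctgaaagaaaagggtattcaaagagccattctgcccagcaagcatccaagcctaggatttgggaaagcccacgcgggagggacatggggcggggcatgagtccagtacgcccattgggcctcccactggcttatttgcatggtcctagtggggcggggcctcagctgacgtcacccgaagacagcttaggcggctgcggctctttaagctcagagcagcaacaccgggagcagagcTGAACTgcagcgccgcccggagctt
Plin5: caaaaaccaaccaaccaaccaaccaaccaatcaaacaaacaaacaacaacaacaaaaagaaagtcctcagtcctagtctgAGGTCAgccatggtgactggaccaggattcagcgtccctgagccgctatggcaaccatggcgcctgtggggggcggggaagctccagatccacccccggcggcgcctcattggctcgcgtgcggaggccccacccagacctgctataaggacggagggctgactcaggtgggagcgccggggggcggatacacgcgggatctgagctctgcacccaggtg
Plin2: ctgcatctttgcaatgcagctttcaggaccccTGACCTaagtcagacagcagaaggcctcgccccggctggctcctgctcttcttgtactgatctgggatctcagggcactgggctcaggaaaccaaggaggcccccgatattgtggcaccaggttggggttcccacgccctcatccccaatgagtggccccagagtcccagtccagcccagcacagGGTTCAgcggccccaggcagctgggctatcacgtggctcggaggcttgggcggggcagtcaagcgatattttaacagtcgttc

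The Abhd5 promoter held 1 hexamer, on the opposite strand at -69 to -64, and the outer Plin5 promoter held 1 at -170 to -165. Plin2 held 2, at -218 to -213 and -33 to -28, Pnpla3 held 1 just after its start, at +25 to +30, and Pnpla2 held none. Among all 12 promoter windows of the 10 genes (Plin5 and Cidec have 2 starts each), 6 held a hexamer, while 43.7% of all 32851 RefSeq windows of the same length held one. A pair of the hexamers as a direct repeat with 1 to 5 bases between was in 0 of the 12 windows and in 0.700% of all windows. These letters are a description of the windows, and their absence says nothing about the binding of a receptor.

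Peaks lay over many of these windows. Under the control diet, 9 of the 12 windows overlapped a RARα peak, 6 a RARβ peak and 7 an RXRα peak, whereas 34.7%, 23.3% and 28.9% of all RefSeq windows did. Under RA the counts were 9, 8 and 10, whereas 34.1%, 30.0% and 30.8% of all windows did. The windows of Plin3, Plin5, Abhd5, Pnpla2 and Cideb were covered in all 6 lists, and the outer Cidec window in none.

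All 10 genes had peaks of all 3 receptors under both diets in the window of 50 kb. That alone does not set them apart, since 83.7% of all coding genes had a RARα peak there on the control diet (84.8% on RA), 70.2% a RARβ peak (77.8% on RA) and 83.7% an RXRα peak (84.3% on RA). The median number of peaks per gene was above the median of all coding genes in every list. The lipid droplet genes had a median of 6.5 RARα peaks under the control diet and 9.5 under RA, where the median coding gene had 4.0 in both lists. The RARβ medians were 4.0 and 7.0 against 1.0 and 3.0, and those of RXRα 11.5 and 13 against 5.0 and 5.0. The windows were not matched for gene length or for neighbours, and held from 0 other coding starts at Abhd5 to 9 at Pnpla2.

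Within 10 kb of the start, all 10 genes had a peak in every list but that of RARβ under the control diet, where 7 had one. The share of all coding genes with such a peak was 61.7% and 63.2% for RARα, 44.0% and 54.6% for RARβ, and 61.3% and 61.7% for RXRα, control diet first. The 3 genes without a RARβ peak there under the control diet were Plin2, G0s2 and Cidec. That list was also the shortest. With all lists cut to its length, 8 and 8 genes had a RARα peak within 10 kb, 7 and 9 a RARβ peak and 7 and 8 an RXRα peak. The share of all coding genes was not computed for the cut lists, so these counts have no background. Within 1 kb, 8 and 8 genes had a RARα peak, 6 and 8 a RARβ peak, and 7 and 10 an RXRα peak, while the shares of all coding genes were 48.0% and 48.0%, 34.4% and 41.8%, and 41.3% and 43.3%.

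**Figure D1:**
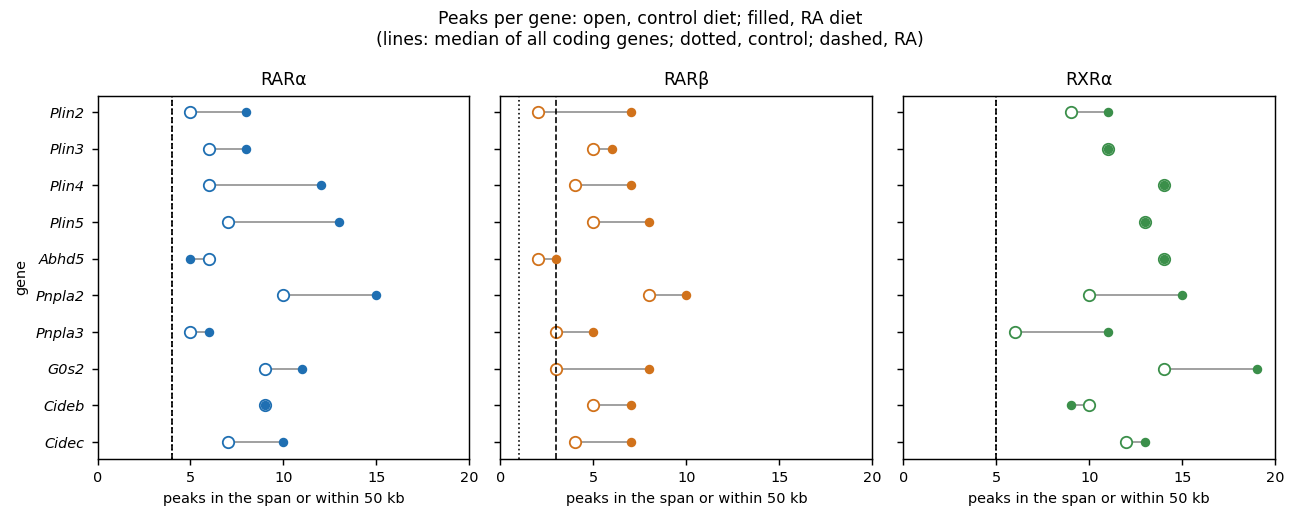
Number of peaks per gene in the span or within 50 kb (x axis) for the 10 genes (y axis), with open points for the control diet and filled points for the RA diet, 1 library each, and vertical lines at the median of all coding genes (dotted control, dashed RA). RARβ had more peaks under RA at all 10 genes, whereas RXRα counts were equal between the diets at Plin3, Plin4, Plin5 and Abhd5 and ranged up to 19 at G0s2 under RA.

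Pnpla2, the triglyceride lipase, carried a broad peak at its start in all 6 lists (chr7:141454789-141456690). In the control RARα list this peak scored 657.19 and ranked 387 of 35521, in the top 1.09%. In the RARα list under RA it scored 477.90 and lay in the top 4.07%. RXRα was in the top 6.59% under the control diet, with 13.1% under RA. The RARβ peak over the start was in the top 54.0% under the control diet (position 8082) and in the top 73.8% under RA (position 21749). The peaks of all 3 receptors over the lipase start itself thus stood lower in their lists under RA. A separate RARβ peak 863 bp inside the gene was called under RA alone, in the top 26.5% (position 7809). It lay in the same merged region and stood higher than the control RARβ peak there. Pnpla2 had the most RARα peaks of the 10 genes, 10 under the control diet and 15 under RA, in a window crowded with other starts. Its strongest RXRα peak lay at -40.9 kb, at the start of Gatd1, and stood in the top 0.321% and 1.52%. A further region at -14.4 kb, near Slc25a22, was in both RXRα lists (37.1% and 24.1%) and in the RARβ list under RA alone, where it reached the top 13%.

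Abhd5, the co-activator of that lipase, had the strongest RARα peak of the whole set. It lay across the start (chr9:122351144-122352254) with a score of 813.88, rank 154 of 35521 and the top 0.434% in the control list. Under RA it scored 677.80 and ranked 403 of 44296, in the top 0.910%. RARβ at the same place stood in the top 26.4% under the control diet (position 3950) and in the top 70.4% under RA (position 20740), and RXRα in the top 64.9% and 38.5%. The start of Abhd5 was therefore a place of high RARα rank and moderate to low RXRα rank in both diets. The strong RXRα peaks of Abhd5 lay elsewhere. The best was 44.4 kb downstream of the start (top 2.98% under the control diet, 9.29% under RA), followed by 1 at -13.7 kb (7.76% and 17.5%) and 1 at 26.5 kb inside the gene (9.35% and 20.2%). Each of these stood higher in the control list. Of the 19 merged regions at Abhd5, 11 were RXRα regions without any RAR peak, the most for any of the 10 genes. Over all regions the share of such regions was 36.3%. Some of the 11 were called under 1 diet alone, and the Abhd5 window held 0 other coding starts.

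G0s2, the inhibitor of the lipase, is a short gene of 1029 bp. Its start carried a RARα peak in the top 29.9% under the control diet and in the top 6.52% under RA. RXRα was called at that start under RA alone, near the foot of the list (98.1%), and RARβ under neither diet. An RXRα region at -1.41 kb, without any RAR peak, stood in the top 18.3% under the control diet and lower under RA (31.4%). A stronger RXRα region lay at -5.34 kb (chr1:193278004-193279048), in the top 4.51% under the control diet and 1.90% under RA. At this upstream region RARα (top 45.1%) and RARβ (top 29.1%) were called under RA and not under the control diet. The highest RAR ranks in the window were 45.4 kb downstream, inside Hsd11b1, where RARα stood in the top 2.85% and 1.15%, RARβ in the top 1.98% and 0.662% (positions 296 and 195) and RXRα in the top 19.7% and 5.32%. All 3 receptors stood higher in their RA lists there. Hsd11b1 encodes an enzyme that regenerates active glucocorticoid, and the region lies 14.6 kb from its own start.

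Pnpla3, a lipid droplet protein of hepatocytes that is related to the lipase, had the strongest RXRα peak of the set. It lay upstream at -11.5 kb (chr15:84155697-84156941), with a score of 1421.20, rank 138 of 61128 and the top 0.226% under the control diet. Under RA it scored 1803.81 and ranked 59 of 59624, in the top 0.0990%. RARβ at this region stood in the top 61.4% on the control diet (position 9192) and 6.93% on RA (position 2042), and RARα in the top 95.2% and 43.7%. All 3 receptors were called there under both diets and all 3 stood higher in the RA list. No other coding start lay nearer to this region than that of Pnpla3. A second strong RXRα region lay 0.995 kb inside the gene (top 1.15% and 1.31%). RARβ stood there in the top 54.9% (position 8212) and 42.6% (position 12553). The promoter itself, whose hexamer lies after the start, was covered by RARα in both lists (top 63.9% and 26.7%) and by no RXRα peak. RARβ covered it under RA alone, in the top 90.7%.

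**Figure D2:**
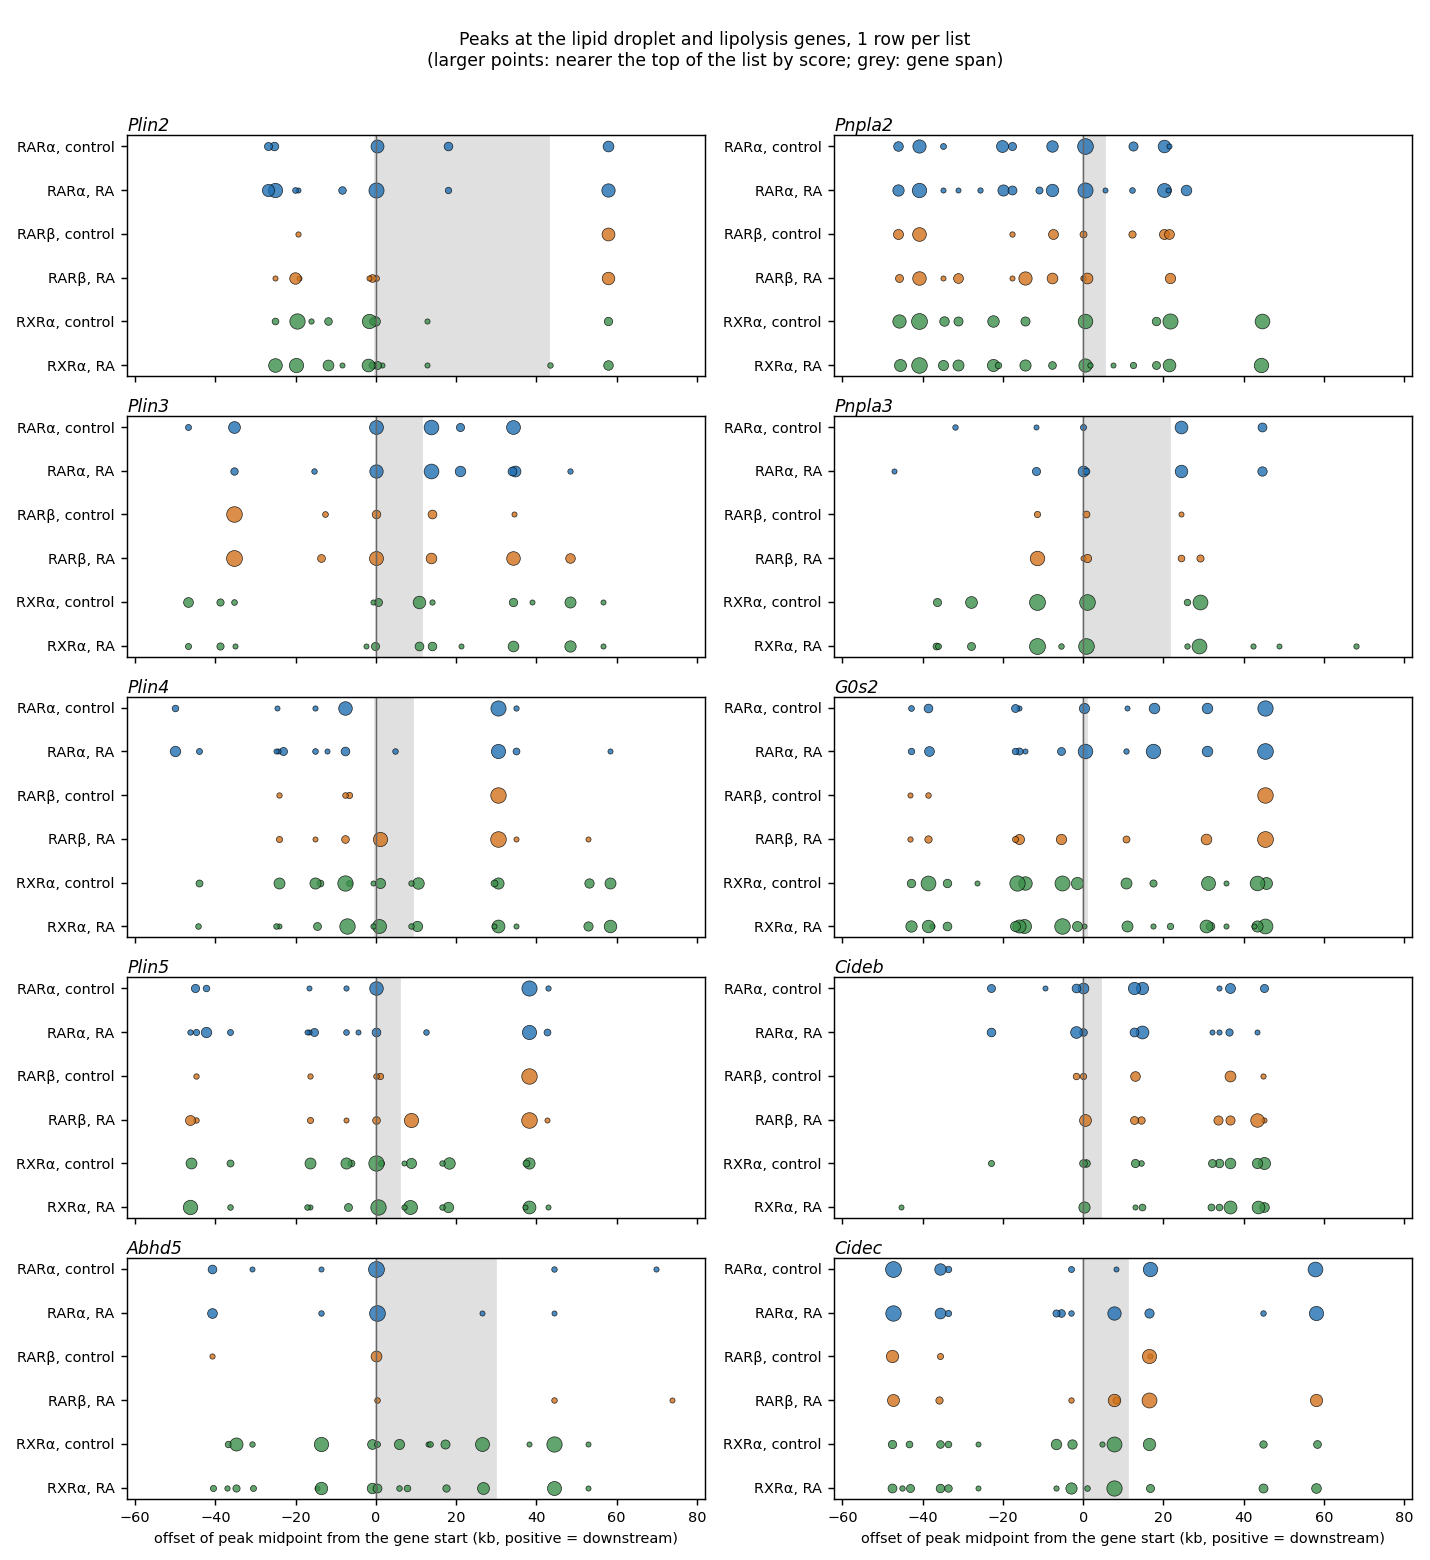
Every peak assigned to the 10 genes, by offset of its midpoint from the gene start in kb (x axis, positive downstream) and by list (rows), with larger points nearer the top of their list and the gene span in grey. The large RXRα points at Pnpla3 lie upstream at -11.5 kb and just inside the gene, and the largest points at Abhd5 are the RARα peaks at the start.

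Plin2 coats droplets in most cell types, hepatocytes included. Its start carried RARα in the top 14.7% under the control diet and 4.09% under RA. RXRα stood highest not at the start but at -19.8 kb (top 2.93% and 8.06%) and at -1.93 kb (7.41% and 15.8%), and at the start itself it was in the top 32.8% and 44.1%. The RARα peak at the start thus stood higher under RA, and these 3 RXRα peaks stood lower. RXRα at Plin2 moved in both directions. It stood higher under RA at -0.987 kb (61.5% and 51.7%), at -11.9 kb (47.7% and 26.4%) and at 57.9 kb (42.1% and 33.8%). At 12.8 kb it stood lower (84.5% and 87.5%). RARβ was absent from the start and from 10 kb around it under the control diet, and was called under RA in 3 regions there, in the top 47.4%, 66.0% and 87.4%. A region at -25.2 kb had higher ranks under RA for both RARα (40.8% and 7.80%) and RXRα (56.1% and 11%).

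Plin3, a perilipin found on small and growing droplets, had 1 broad region over its start in all 6 lists (chr17:56289285-56291644). RARα stood in the top 10.1% and 12.5%, RARβ in the top 41.4% and 9.55%, and RXRα in the top 44.8% and 43.6%. RXRα kept nearly the same place between the diets. The RARβ peak was 358 bp wide under the control diet (position 6192) and 2128 bp wide under RA (position 2814). Plin3 had the lowest RXRα ranks of the perilipins, with a best peak in the window in the top 16.8% under the control diet and 23.3% under RA. The strongest RARβ peak at any of the 10 genes was in its window, at -35.4 kb at the start of Kdm4b. It stood in the top 1.39% (position 208) and 0.421% (position 124).

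Plin5 and Plin4 are neighbours, and their windows share 16 of the merged regions, so values at these genes are not independent. Plin5, the perilipin of tissues that burn fatty acids, had a region in all 6 lists over its start (chr17:56116031-56118026). RXRα stood in the top 2.65% under the control diet and 2.52% under RA, RARα in the top 11.4% and 39.8%, and the RARβ peak over the start in the top 70.4% (position 10533) and 47.3% (position 13947). RXRα at the Plin5 start was thus near the top of both lists, and RARα stood lower under RA. At Plin4, a perilipin best known from fat tissue, RXRα was weak just upstream of the start (91.8% and 77.5%). A region 0.801 kb inside Plin4 (chr17:56108370-56109592) had RXRα in the top 30.5% and 9.22%, and RARβ under RA alone in the top 8.33%. RARα was not called in that region. The strongest RAR peaks in both windows lay at the start of Ubxn6. RARα stood there in the top 3.66% and 8.36%, and RARβ in the top 2.16% and 1.59% (positions 324 and 469).

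Cidec, which drives the fusion of droplets, had no peak over its outer promoter in any list. Its best RXRα peak lay 7.74 kb inside the gene (chr6:113427190-113428852), in the top 4.87% under the control diet and 3.06% under RA. RARα at the same region was near the foot of the control list (94.1%, score 54.12) and in the top 12.6% under RA (score 324.37). RARβ was called there under RA alone, in the top 17.1%. The inner of its 2 starts was covered by 1 RXRα peak, under RA, in the top 70.9%. The strongest RARα peak in the window belonged to the start of Creld1, at -47.4 kb (0.510% and 2.39%).

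Cideb had the weakest peaks of the set for RXRα under the control diet. Its start region (chr14:55757322-55758910), which also covers the start of the leukotriene receptor gene Ltb4r2, was in all 6 lists. RARα stood in the top 26.9% and 47.4%, RARβ in the top 59.8% and 20.6% (positions 8957 and 6062), and RXRα in the top 47.2% and 23.7%. RARβ and RXRα stood higher under RA and RARα lower. A second region at -1.87 kb held RARα in both lists (39.5% and 21.3%) and no RXRα, and RARβ under the control diet alone (58.0%).

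**Figure D3:**
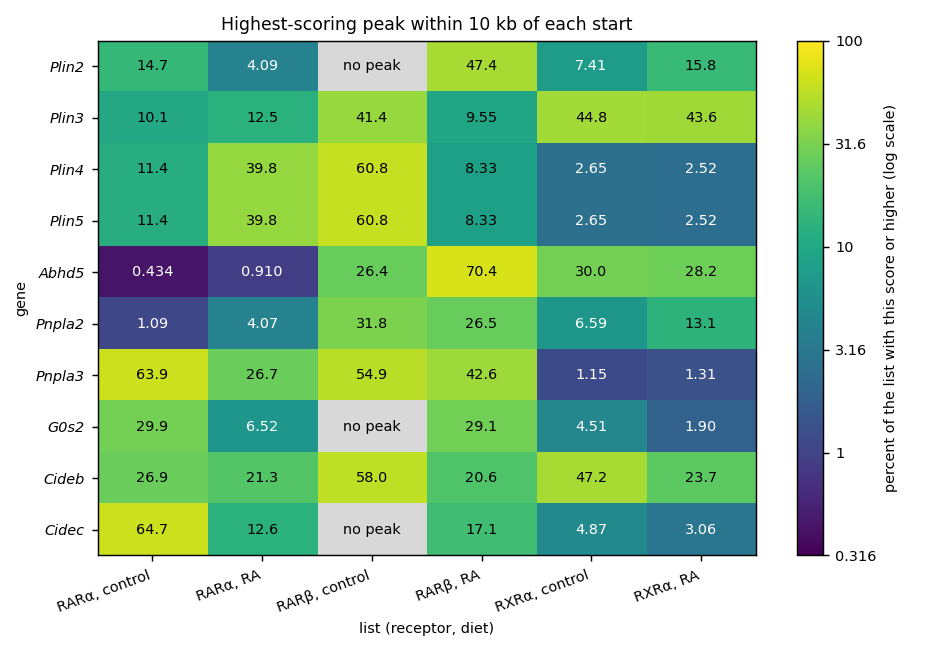
Rank of the highest-scoring peak within 10 kb of each start (cell values and colour, percent of the list with that score or higher, log colour scale) for 10 genes (rows) and 6 lists (columns), where grey marks no peak. RARα was strongest at Abhd5 and Pnpla2, RXRα at Pnpla3, Plin4, Plin5 and G0s2, and Plin4 and Plin5 share their values because their starts lie close together.

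Across the 10 genes the best peak within 10 kb of the start had a median rank of 13.1% and 12.5% for RARα, where the median over all coding genes with such a peak was 20.7% and 21.1%. For RXRα the medians were 5.73% and 8.09% against 36.8% and 35.6%, and for RARβ 54.9% (7 genes) and 23.5% against 31.3% and 28.5%. The gap to all genes was thus widest for RXRα, and in the RARβ control list the median of the 7 genes was below that of all coding genes with such a peak. Plin4 and Plin5 had the same best peak in every list, so it enters each median for both genes. The RARβ control peak of Pnpla2 lay at the start of Rplp2. Within the full window the best peaks had medians of 3.66% and 4.94% for RARα, 9.59% and 5.85% for RARβ, and 2.88% and 2.79% for RXRα, against 12.3% and 10.9%, 21% and 15%, and 13.9% and 14.8%. A window with more peaks has a better best rank by construction, and these windows held more peaks than that of the median gene. Many of those stronger window peaks were nearest to another gene. In the RARα lists this held for 7 of the 10 best peaks under each diet, in the RARβ lists for 8 and 8, and in the RXRα lists for 5 and 4. Most were at the very start of that gene, with 5 and 5 best RARα peaks, 7 and 6 best RARβ peaks and 3 and 3 best RXRα peaks within 1 kb of it.

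The comparison of the diets asked which sites a receptor held with and without RA in the food. RARα had 64 peaks at the 10 genes under the control diet and 86 under RA, a ratio of 1.34 where the whole lists had 1.25. RARβ had 37 and 62, a ratio of 1.68 where the whole lists had 1.97, and RXRα 101 and 118, a ratio of 1.17 where the whole lists had 0.975. When all lists were cut to the same number of top peaks, RARα had a ratio of 0.914 at these genes, RARβ 1.03 and RXRα 1.16. The higher RARβ count under RA thus went with the longer list.

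Peaks that overlapped by at least 25% of both widths were taken as shared. Of the control peaks at these genes, 58 of 64 RARα peaks (90.6%, exact 95% interval 80.7 to 96.5), 29 of 37 RARβ peaks (78.4%, 61.8 to 90.2) and 93 of 101 RXRα peaks (92.1%, 85.0 to 96.5) were shared with the RA list. The shares over whole lists were 84.2%, 75.8% and 78.7%. In the other direction, 68.6% of 86 RARα peaks (57.7 to 78.2), 46.8% of 62 RARβ peaks (34.0 to 59.9) and 78.0% of 118 RXRα peaks (69.4 to 85.1) under RA were shared with the control list, where whole lists gave 68.4%, 38.2% and 80.3%. The share of RXRα control peaks was the 1 value whose interval lay wholly above that of its list. The comparison was not matched for score. Of the RXRα control peaks, 80 of 101 at these genes scored at least 100, and 39631 of 61128 in the whole list did. These intervals cover counting error only, and neighbouring peaks of 1 gene are not independent.

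Sites called under 1 diet alone were mostly sites of the RA diet, for each receptor. Over all regions this also held for both RARs, whose lists were longer under RA. It did not hold for RXRα, with 11109 regions under RA alone and 12320 under the control diet alone. After merging the peaks of all lists that overlap, the 10 genes had 147 of 87802 regions. RARβ was called in 57 of them under RA, and in 27 of these (47.4%) under RA alone, where the share over all regions was 60.2%. Of the 27, 23 (85.2%) were also RXRα regions under the control diet and 15 (55.6%) RARα regions, against 86.7% and 46.4% over all regions. For RARα, 25 of 81 regions (30.9%) were called under RA alone and 6 of 62 (9.68%) under the control diet alone, against 30.7% and 15.1%. For RXRα these were 26 of 115 (22.6%) and 8 of 97 (8.25%), against 19.2% and 20.9%, and 4 of 34 RARβ control regions (11.8%) had no RARβ peak under RA, against 21.6%. Sites of the control diet alone thus made up a smaller share at these genes than over all regions for each receptor, beyond counting error for RXRα (interval 3.63 to 15.6%) and within it for both RARs. These regions were not matched for score with all regions.

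Among regions in the top 50% of a list, the share called under 1 diet alone lay within counting error of that of all regions. For RARβ under RA it was 14 of 36 (38.9%, 23.1 to 56.5), where all regions gave 41.9%, and under the control diet 0 of 15 (up to 21.8%), where all regions gave 7.26%. RARα had 5 of 45 (11.1%, 3.71 to 24.1) under RA and 1 of 42 (2.38%) under the control diet, against 7.41% and 1.93%. RXRα had 1 of 63 (1.59%) under RA, against 2.40%, and 0 of 67 (up to 5.36%) under the control diet, against 3.92%. Of the 14 RARβ regions, 13 held RXRα under both diets (92.9%, all such regions 95.7%), and 4 had a lipid droplet gene as the nearest coding gene, namely Plin2, Plin4, G0s2 and Cidec, described above. The others were nearest to genes such as Tgm1 (11.7%, in the Cideb window), Tada3 (18.3%, in the Cidec window) and Fem1a (33.6%, in the Plin3 window). The 1 RARα region of the control diet alone lay at the start of Tgm1 (44.0%).

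RXRα peaks that moved by at least 2-fold in rank between the diets stood mostly nearer the top under the control diet. Peaks of a receptor that were each other's closest partner in the 2 diets, with an overlap of at least 25% of both widths, were compared by position among all such matched peaks of that receptor, which gives both diets equal numbers. Of the 89 matched RXRα peaks at these genes, 18 (20.2%, 12.4 to 30.1) stood at least 2-fold nearer the top under the control diet, where 7.81% of all matched RXRα peaks did, and 6 (6.74%, 2.51 to 14.1) under RA, where 7.23% did. Of the 18, 5 were at Abhd5 and 4 in the G0s2 window, and the peak at -19.8 kb of Plin2 and that at the start of Gatd1 were among the others. The share of 20.2% and its background of 7.81% were not matched for rank under the control diet. Only a peak in the upper part of the control ranks can stand 2-fold nearer the top there. The 101 RXRα control peaks at these genes had a median rank of 37.3%, above the middle of their list. The part of this starting rank in the share of 20.2% was not tested.

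For RARα 10 of 58 matched peaks (17.2%, 8.59 to 29.4) stood at least 2-fold nearer the top under the control diet and 6 (10.3%, 3.89 to 21.2) under RA, against 9.25% and 9.33%. For RARβ these were 1 of 29 (3.45%, 0.0873 to 17.8) and 2 (6.90%, 0.846 to 22.8), against 16.3% and 16.0%. The shares of both RARs lay within counting error of all matched peaks. Counting moves of any size, 44 of 89 RXRα peaks (49.4%), 23 of 58 RARα peaks (39.7%, 27.0 to 53.4) and 10 of 29 RARβ peaks (34.5%, 17.9 to 54.3) stood nearer the top under RA, against 51.1%, 49.7% and 47.7%. By percent of the whole list the RARβ count was 18 of 29 (62.1%, all matched peaks 63.7%), and by position in the whole list 5 of 29 (17.2%, all matched peaks 32.0%), so its direction turned with the measure of rank.

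**Figure D4:**
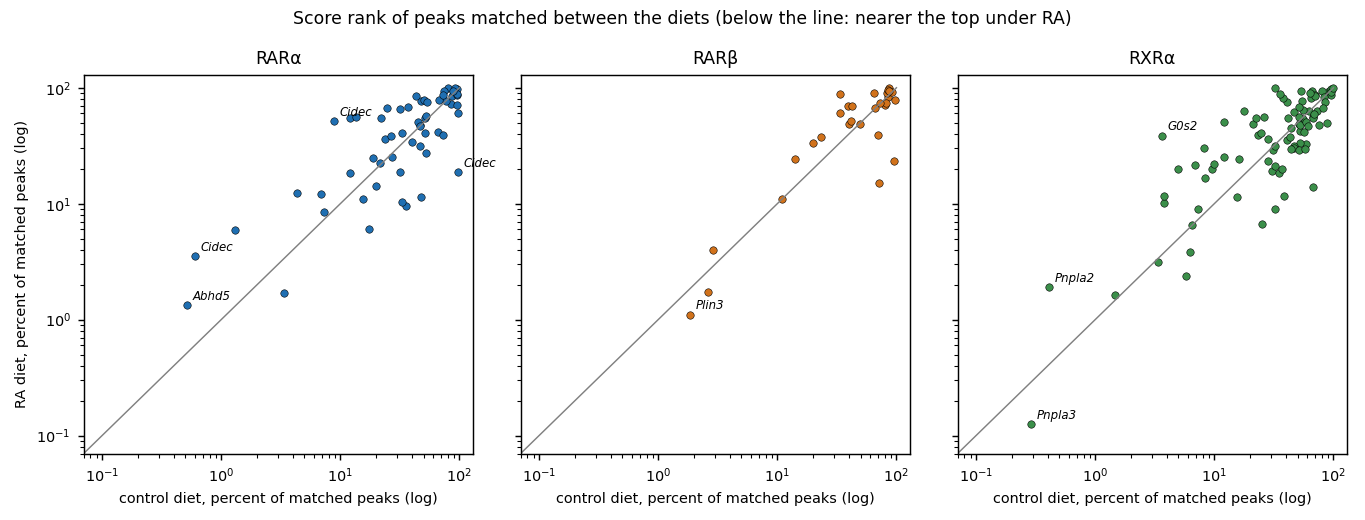
Rank of each peak at the 10 genes that was matched between the diets, under the control diet (x axis) and under RA (y axis), as percent of all matched peaks of the receptor with that score or higher on log axes, 1 panel per receptor and 1 point per peak, with points below the line nearer the top under RA. In the RXRα panel 18 of 89 points lie at least 2-fold above the line and 6 at least 2-fold below it, and the Pnpla3 peak at -11.5 kb is the lowest point.

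The comparison of the receptors asked how far the RARs sat where RXRα sat. Under the control diet, 44 of 64 RARα peaks (68.8%, 55.9 to 79.8) and 27 of 37 RARβ peaks (73.0%, 55.9 to 86.2) at these genes were shared with RXRα, where whole lists gave 61.1% and 77.8%. Under RA the shares were 61 of 86 (70.9%, 60.1 to 80.2) and 56 of 62 (90.3%, 80.1 to 96.4), where whole lists gave 61.7% and 89.9%. All 4 shares were within counting error of their list, and RARβ under RA was the RAR list most often found with RXRα.

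Of the 147 regions, 24 (16.3%, 10.7 to 23.3) were in all 6 lists, where 9.75% of all regions were, and 40 (27.2%) were in 1 list, where 29.4% were. RXRα without any RAR was found in 51 (34.7%, all regions 36.3%), of which 27 held RXRα under both diets (18.4% of 147, all regions 16.9%). A RAR without RXRα was found in 24 (16.3%, all regions 20.1%). The regions in all 6 lists lay mostly at starts, 18 of 24 within 1 kb of some coding start (75.0%, 53.3 to 90.2), as did 57.8% of all such regions. Of the 51 regions with RXRα and no RAR, 4 did (7.84%, 2.18 to 18.9), against 2.48% of all such regions. The nearest coding start was that of 1 of the 10 genes at 5 of the 24, and at 50 of all 147. Among the 5 was the Pnpla3 region at -11.5 kb, which lay at no start. The Cideb start region was not among them, as its nearest start was that of Ltb4r2. Within 1 kb of their own starts, 5 of the 10 genes (Plin3, Plin5, Abhd5, Pnpla2 and Cideb) had a region in all 6 lists.

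Peaks in these windows were close to starts more often than in the lists as a whole. Within 1 kb of any coding start lay 43.8% (31.4 to 56.7) and 39.5% (29.2 to 50.7) of the RARα peaks, against 27.0% and 22.5% of the lists. For RARβ the shares were 70.3% (53.0 to 84.1) and 48.4% (35.5 to 61.4) against 45.2% and 28.1%, and for RXRα 26.7% (18.4 to 36.5) and 26.3% (18.6 to 35.2) against 14.5% and 15.4%. Each window is drawn around a gene start, and the part of that choice in these shares was not tested.

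Other genes of droplet biology were counted in the same way. Of 18 such genes, among them the lipases Lipe and Mgll, the triglyceride synthases Dgat1 and Dgat2 and the seipin gene Bscl2, 17 and 17 had a RARα peak within 10 kb of the start, 11 and 16 a RARβ peak and 17 and 18 an RXRα peak, control diet first. Within 1 kb the counts were 14 and 15, 10 and 12, and 13 and 13. The shares of all coding genes within 10 kb were 61.7% and 63.2%, 44.0% and 54.6%, and 61.3% and 61.7%. Within 1 kb they were 48.0% and 48.0%, 34.4% and 41.8%, and 41.3% and 43.3%. As at the 10 genes, the RARβ control list, the shortest of the 6, had the fewest bound genes. Lipe, hormone-sensitive lipase, had 3 and 5 RARα peaks within 10 kb, 2 and 3 of RARβ and 6 and 5 of RXRα. Fitm1, which helps droplets form, had 2 and 3, 0 and 2, and 7 and 6.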

How the data were processed

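Per the labels and the study's methods, the authors aligned single-end ChIP-seq reads to mm10 with Bowtie and called peaks with MACS, apparently 1 list per library. The 6 deposited BED lists give a position and a score for each peak. This score, as deposited, was set by the caller on a -10log10 p scale, as that caller is known to write it, and is not normalised between libraries. The lowest score in any list was 50.00. The study's limit on signal over input is not in the lists and was not applied, so the lists were used as deposited. The input library was not used here. Read totals per list are not in the files, and the totals stated by the study for RARα and RXRα name no diet and were not used, so the depth of each list is not known. Intervals cover counting error only.

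Gene spans came from RefSeq (GRCm38.p6). Starts and strands came from the RefSeq promoter table for 17492 of the 21536 genes, all 10 members among them, and otherwise from the span with the strand of GENCODE M1, matched by symbol. On GRCm38, 14.5% to 45.2% of peaks lay within 1 kb of a start, and on NCBIM37 3.18% to 5.51%, so no NCBIM37 coordinate was used. Exons were not annotated here. Peaks of all lists overlapping by at least 1 bp were merged into regions. Exact (Clopper-Pearson) 95% intervals were computed with SciPy 1.17.1 in Python 3.11.15, figures were drawn with matplotlib 3.10.9, and merging was checked with bedtools 2.31.1. The scripts were tested on simulated peaks.

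The labels gave the receptor and the diet of each sample. No test was made, with 1 library per group. All 10 members were named, together with their best peak in each list, regions of 1 diet in the top 50% of a list, and another gene where its start lay nearer to such a peak. Other examples (the second-ranked regions, Lipe and Fitm1) were chosen after their values were seen. The members and the gene lists were chosen with earlier results of these data known. The comparison of matched peaks and its measures of rank were chosen after seeing the data. Alternatives were a score of at least 100, lists of equal length, other windows and other overlaps.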

Additional observations from a re-analysis of the deposited data

Results flagged for a closer look

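At 2 genes, peak counts under RA went up for 1 receptor and down for another. Abhd5 had 1 peak fewer under RA for RARα (-1), 1 more for RARβ (1) and no difference for RXRα (0). Cideb had no difference for RARα (0), 2 more for RARβ (2) and 1 fewer for RXRα (-1).

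At 3 genes (Plin2, Plin4 and Plin5) the rank of the best peak within 10 kb of the start moved by at least 2-fold toward the top for 1 receptor and at least 2-fold away from it for another. Opposite directions, with the move under 2-fold in at least 1 of them, were also seen at Plin3, Abhd5, Pnpla2 and Pnpla3. At Pnpla2 this rested on the RARβ percent (31.8% and 26.5%), whose positions were 4758 and 7809. At Plin2 the percent of the list at or above that peak under RA was 0.278 times the control value for RARα and 2.13 times for RXRα. At Plin4 and Plin5, which share these peaks, RARα had a ratio of 3.49, RARβ of 0.137 (positions 9102 and 2455) and RXRα of 0.951. For RARβ the 2 lists had their best peak in different regions, the Plin5 start under the control diet and the body of Plin4 under RA. Each value rests on 1 library per receptor and diet, and none of these differences was tested.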

How the results depend on the processing

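Of 118 values recomputed under other settings for 36 results, 68 stayed within the limits set for no change (1.5 times for a count, the counting interval for a share) and 50 moved. Values are in the order RARα control, RARα RA, RARβ control, RARβ RA, RXRα control, RXRα RA unless named. Peaks at the genes numbered 64, 86, 37, 62, 101 and 118. A score of at least 100 left 42, 55, 12 and 36 RAR peaks, 2 genes with a RARβ control peak within 10 kb, and 9 regions in all 6 lists. Lists of equal length gave 35, 32, 38 (RARβ RA), 31 and 36 peaks, 77 regions and 7 in all 6 lists. With equal lengths the direction between the diets turned for RARα (35 control, 32 RA), and RARβ went from the fewest peaks of the 3 receptors to the most under each diet. Ranked by percent of the whole list, as was chosen after seeing the data, 62.1% of matched RARβ peaks stood nearer the top under RA, by position in the whole list 17.2%, and among matched peaks 34.5%. By position in the whole list 37.9% of them stood 2-fold nearer the top under the control diet, where 35.5% of all matched RARβ peaks did. A window of 10 kb gave 22, 30, 15, 25, 39 and 44 peaks, 58 regions and 8 in all 6 lists, and one of 100 kb gave 98, 137, 56, 98 and 152 for the lists up to RXRα control. Peaks nearest to the gene's own start numbered 19, 25, 10, 21, 37 and 39. Within 10 kb of the start the median best rank was 13.1%, 12.5%, 54.9%, 23.5%, 5.73% and 8.09%. With an overlap of 50%, the shared part was 59.5% of RARβ control, 79.2% of RXRα control and 67.8% of RXRα RA peaks. For peaks with a score of at least 100 it was 97.6% and 85.5% for RARα, 91.7% for RARβ control, 98.8% and 92.6% for RXRα, and 97.2% of RARβ RA peaks with RXRα. These settings keep fewer or more peaks by construction. No paired analysis was possible because each receptor and diet had 1 library. Depth, animal to animal spread and antibody strength cannot be told apart from the differences between lists.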
